A study of Homo sapiens with 16 samples.

Results

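The genes described here encode the cytosolic ribosomal proteins, the protein part of the ribosomes that translate nuclear messages. They were chosen by symbol from the deposited count table: RPL or RPS followed by a number with an optional A or X, the acidic stalk genes RPLP0, RPLP1 and RPLP2, and RPSA. The rule found 77 of 20114 genes, 46 of the large subunit and 31 of the small subunit. Of these, 76 passed the expression filter among 14035 genes tested. FAU, which encodes a ribosomal protein fused to a ubiquitin-like domain, has another kind of symbol and was therefore not a member.

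RNA sequencing of polyadenylated RNA was carried out in Hs578, a breast cancer line, and in TT642, whose source label names a rhabdoid tumour although the series' design text counts both lines as triple-negative breast cancer. Each line was studied as 3 derived lines, each carrying 1 of 3 Tet-inducible short hairpin RNAs against PRRX1, a homeobox transcription factor of mesenchymal cells, and as parental cells with no hairpin. Every derived line and both parental lines were sequenced once with 3 µg/ml doxycycline, which switches the hairpin on, and once with none. This gave 16 libraries in 8 groups: hairpin lines with doxycycline (3 libraries per line), hairpin lines without (3), parental cells with doxycycline (1) and parental cells without (1). A hairpin number therefore marks a hairpin, a derived line and a library, nothing in the labels names repeat cultures, and p-values measure the spread between these libraries.

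PRRX1 itself had 37.1, 72.8 and 51.0 CPM (counts relative to the library's TMM-scaled total) in Hs578 hairpin lines 1, 2 and 3 with doxycycline, against 291, 227 and 262 CPM without, a log2 fold change of -2.28 ± 0.37 (SE, adjusted p = 0.00224 in edgeR's quasi-likelihood test). In TT642 it had 265, 184 and 513 CPM with doxycycline, against 1213, 1409 and 1301 CPM without, a log2 fold change of -2.03 ± 0.36 with an adjusted p of 0.166. Both calls depended on which libraries entered the fit. Without every hairpin 1 library of both lines, induced and uninduced, the Hs578 value was -1.98 and no longer passed (adjusted p = 0.0605). Without the single induced library of hairpin line 3 the TT642 value was -2.55 and passed (adjusted p = 0.00404). Libraries held 13461527 to 24672906 counts. All 8 mesenchymal marker genes were expressed in both lines, and the 5 blood cell genes stayed under 1 CPM in every library. Of 8 epithelial markers, 4 in Hs578 and 5 in TT642 stayed under 1 CPM. The lines differed in the rest: the 8 markers summed to 246 to 441 CPM across Hs578 libraries and to 1.64 to 5.40 CPM across TT642 libraries. SMARCB1, the gene whose loss defines rhabdoid tumours, lay at 87.7 to 125 CPM across Hs578 and was detected in every TT642 library, at 28.8 to 41.6 CPM.

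A ribosome joins a small subunit, which reads the message, to a large subunit, which forms peptide bonds, and nearly all of its proteins are present as a single copy. Cells therefore make these proteins in matched amounts. Their messages are known to begin with a C followed by a run of pyrimidines, the 5′ terminal oligopyrimidine (TOP) motif, through which the mTOR pathway and LARP1 control their translation and stability together. When ribosome assembly fails, RPL5 and RPL11 bind the p53 regulator MDM2.

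The start of these genes is shown because the TOP motif is the sequence feature the members share and the rule did not use. Of the 77 members, 62 had an entry in the RefSeq table of gene starts (GRCh38.p14), and 46 of these 62 (74.2%) had, at an annotated start, a C followed by at least 4 further pyrimidines, against 718 of 10404 other tested genes (6.90%). With the C allowed within 10 bases of the start, the shares were 85.5% of members and 35.4% of other genes. The windows below run from 30 bases before the annotated start to 25 bases from it, 5′ to 3′, and capitals mark the pyrimidine run that begins at the start itself. The first 4 are members with large responses in Hs578, and RPS6 and RPL41 are members with small ones. RPS26 and RPS15 lack such a run at their annotated start.
RPLP2 (chr11:809937-809991, plus strand): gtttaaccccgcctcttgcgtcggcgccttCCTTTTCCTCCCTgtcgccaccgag
RPL28 (chr19:55385902-55385956, plus strand): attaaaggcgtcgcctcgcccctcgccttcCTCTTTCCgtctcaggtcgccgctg
RPL39 (chrX:119791606-119791660, minus strand): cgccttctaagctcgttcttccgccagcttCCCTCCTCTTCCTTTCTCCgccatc
RPL35 (chr9:124861933-124861987, minus strand): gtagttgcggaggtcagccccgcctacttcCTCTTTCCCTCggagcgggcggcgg
RPS6 (chr9:19380212-19380266, minus strand): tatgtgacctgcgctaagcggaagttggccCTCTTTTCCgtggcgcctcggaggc
RPL41 (chr12:56116603-56116657, plus strand): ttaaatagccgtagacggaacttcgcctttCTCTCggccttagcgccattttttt
RPS26 (chr12:56041888-56041942, plus strand): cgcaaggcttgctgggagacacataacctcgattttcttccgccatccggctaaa
RPS15 (chr19:1438366-1438420, plus strand): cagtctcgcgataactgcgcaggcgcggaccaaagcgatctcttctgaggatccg

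Other short motifs, searched on both strands of the 300 bases from 250 before to 50 after the start, set the members apart less. CCGGAA, the core bound by ETS factors, was in 56.5% of members and 33.0% of other genes. CTTTCC, which overlaps many TOP runs, was in 48.4% of members and 32.6% of other genes. GCCATNTT, the core bound by YY1, was in 16.1% of members and 11.96% of other genes, and TATAAA was in 8.06% of members and 8.91% of other genes.

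By level per length, the members took 11.7% to 22.2% of all FPKM (fragments scaled by transcript length and library depth, as deposited) in a library. Uninduced Hs578 hairpin lines had the highest mean FPKM for RPL8 (2764), RPLP2 (2709), RPL7 (2425) and RPL13A (2044). Uninduced TT642 hairpin lines had the highest mean FPKM for RPL37A (4687), RPS18 (3159), RPL13A (3062) and RPL31 (2828). RPS26 and RPS28, both of the small subunit, were the lowest pair in both lines: 94.9 and 112 FPKM in Hs578, and 179 and 90.9 FPKM in TT642. The summed FPKM of the large subunit over that of the small one ranged between 1.93 and 2.03 over the 8 Hs578 libraries and between 1.71 and 1.77 over the 8 of TT642, so the lines did not overlap in this ratio. It averaged 1.97 ± 0.013 in induced and 1.96 ± 0.0057 in uninduced Hs578 hairpin lines (SD, n = 3 each). The parental Hs578 pair held both ends of the range of that line, with 2.03 in the library with doxycycline and 1.93 in the one without.

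For 4 of the 76 tested members the deposited counts and FPKM values disagree most in scale. RPL36A had 4 to 22 counts but 470 to 1250 FPKM. RPL17, RPS10 and RPL39 had 158 to 388, 95 to 400 and 199 to 563 counts. The ratio of count to FPKM corresponds to under 30 bases of transcript for these 4 members, against a median of 399 bases over the 77. It was under 150 bases for 9 of the 77, among them RPS15A (62.8), RPL41 (87.8), RPS29 (114) and RPS27 (141). The read-through symbols RPL17-C18orf32, RPL36A-HNRNPH2 and RPS10-NUDT3 all had 0 counts in every library. Count-based values of RPL36A, RPL17, RPS10 and RPL39 therefore rest on few reads.

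With doxycycline the ribosomal protein genes moved together in the Hs578 hairpin lines, and in the parental Hs578 pair 74 of 76 were higher as well. All values are relative to the RNA of a library, so a change in the ribosomal protein messages and a change in the RNA per cell cannot be told apart. Of 76 tested members, 69 rose and 0 fell in the hairpin lines (edgeR adjusted p under 0.05), whereas 15.2% of all genes tested rose and 14.1% fell. The median log2 fold change was 0.50, a 1.41-fold difference, where scaling sets the median of all genes near 0, and every one of the 76 estimates was above 0, from 0.05 (RPL17) to 0.97 (RPL39). In the small subunit 30 of 30 tested members rose, with a median of 0.51, and in the large subunit 39 of 46 rose, with a median of 0.49. The 7 members that did not pass the test were all of the large subunit: RPL17, RPL36A, RPL41, RPL7, RPL5, RPL10A and RPL22. Whether the subunits differed in this share was not tested. The 3 induced libraries lay above the 3 uninduced ones, with no overlap, for 69 members (41 large, 28 small), against 22.1% of all genes tested, and below them for 0, against 21.9%.

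The size of the response differed between hairpins. The median log2 ratio of the members, induced over uninduced, was 0.38 in hairpin line 1, 0.38 in line 2 and 0.71 in line 3. All 76 members were higher with doxycycline in line 3, 75 in line 1 and 74 in line 2. Without hairpin 3 in either line, 7 members remained called, namely RPL18, RPL28, RPL35, RPL36, RPL39, RPLP2 and RPS26, and the median was 0.37. Calls over all genes dropped too, from 2139 higher and 1979 lower to 377 and 470, so the drop is not particular to the members. Without the uninduced library of hairpin 1 alone, 42 members were called, and over all genes 1195 were called higher and 1057 lower. From FPKM, limma called 59 members higher, 56 of them among the 69. The 13 it did not call include RPLP0, RPS3, RPS3A, RPS6, RPS23 and RPSA, and the 3 it added were RPL17, RPL22 and RPL36A.

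Parental Hs578 cells, which have no hairpin, showed a shift of the same order. Their median log2 ratio with doxycycline over without was 0.47, and 74 of 76 members were higher. The exceptions were RPS26 and RPL17. In the 4 Hs578 pairs together, 73 of 76 members were higher in every pair, against 21.8% of all genes. PRRX1 had 298 CPM in parental cells with doxycycline and 290 CPM without.

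**Figure D1:**
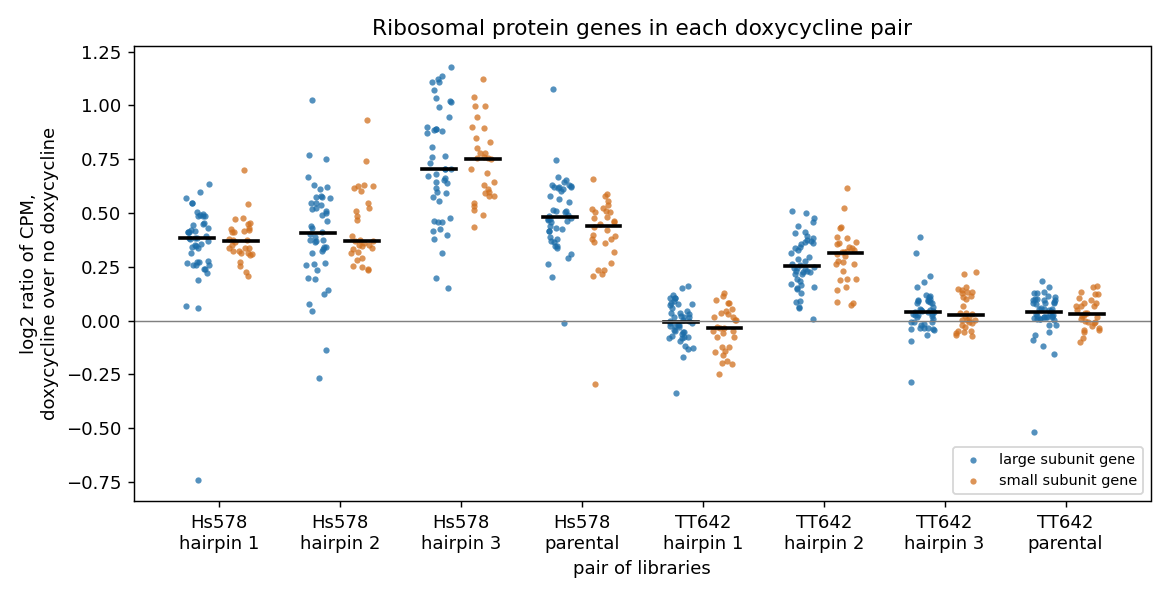
Log2 ratio of CPM with over without doxycycline (y axis) for the 76 tested members in each of the 8 pairs of libraries (x axis), with large subunit genes in blue, small subunit genes in orange and black bars at the medians. The 4 Hs578 pairs, parental cells included, have medians from 0.38 to 0.71, and in TT642 the hairpin 2 pair alone, at 0.28, has all 76 members above 0.

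The counted share of a library that fell on the 77 members shows the same shift when the same counts are divided by the library's total, without the TMM factor. It was 3.41%, 3.89% and 4.38% in Hs578 hairpin lines 1, 2 and 3 with doxycycline, against 2.61%, 3.12% and 2.94% without, and 3.48% in parental cells with doxycycline against 2.63% without. The Wilson 95% interval of such a share is at most 0.0105 percentage points to either side, which covers counting error only. Genes of the mitochondrial genome moved with it: they took 3.18%, 4.27% and 5.44% of counts in the same induced lines, against 2.79%, 2.29% and 2.16% without doxycycline, and 4.16% against 2.73% in parental cells. Of 13 mitochondrial genes tested, 12 rose in the Hs578 hairpin lines, with a median log2 fold change of 0.85. With the members and the mitochondrial genes left out of the TMM scaling, 69 members were called, with a median of 0.50. Any other part of the mitochondrial genes in the ribosomal protein result was not tested.

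**Figure D2:**
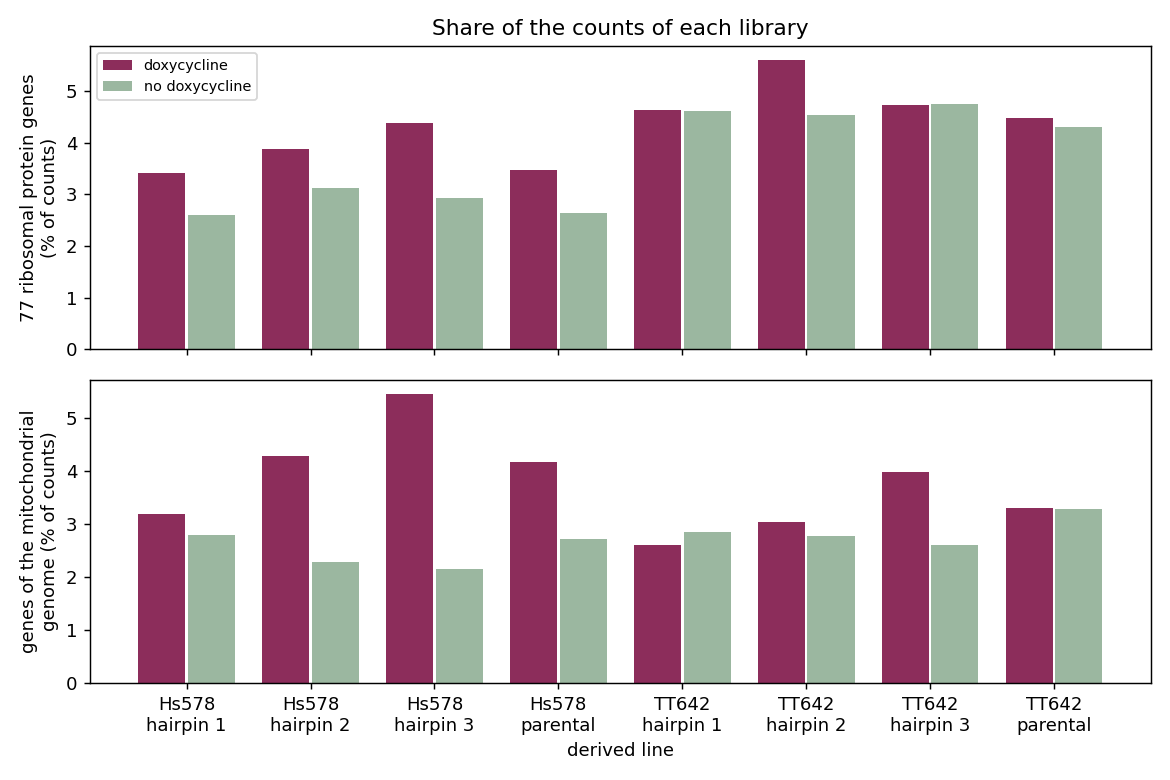
Share of each library's counts (y axes, %) that fell on the 77 ribosomal protein genes (top) and on genes of the mitochondrial genome (bottom), by derived line (x axis), with doxycycline in purple and without in green. All 4 Hs578 pairs are higher with doxycycline in both panels, and TT642 hairpin line 2 with doxycycline has the highest ribosomal protein share, 5.598%.

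Transcript length moved with the Hs578 response too. Among other tested genes whose longest annotated transcript (GENCODE v29) is up to 1000 bases, the median log2 fold change was 0.49 and 46.3% rose. Above that and up to 2000 bases the median was 0.29, up to 4000 bases 0.042, up to 8000 bases -0.17, and for longer transcripts -0.31. Classed by their longest annotated transcript, the members did not follow this order. Their medians in the first 4 of these classes were 0.52 (29 genes), 0.48 (26), 0.48 (15) and 0.64 (6). That class can overstate a member's length: RPL37 and RPL14 have 7686 and 7072 annotated bases, but their count to FPKM ratios correspond to 632 and 595. Over the 77 members this ratio has a median of 399 bases, so these medians do not show that the members' response was apart from length. Once a length trend was removed, with length taken from the count to FPKM ratio, 10 members rose and 2 fell, with a median of 0.11. With the GENCODE length, an alternative chosen after the data were seen, 25 rose and 3 fell, with a median of 0.16. Of all 14035 genes tested, 1314 rose and 1308 fell with the first length, and 1370 rose and 1364 fell with the GENCODE length. RPL17 and RPL41 fell under both corrections, and RPS27, called higher at 0.40 without one, fell by 0.24 (adjusted p = 0.0348) with the GENCODE length. In the parental Hs578 pair, which has no hairpin, the other genes' medians from the shortest class to the longest were 0.21, 0.18, 0.020, -0.11 and -0.26. In TT642 the other genes' medians stayed between -0.01 and 0.01 in all 5 length classes.

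**Figure D3:**
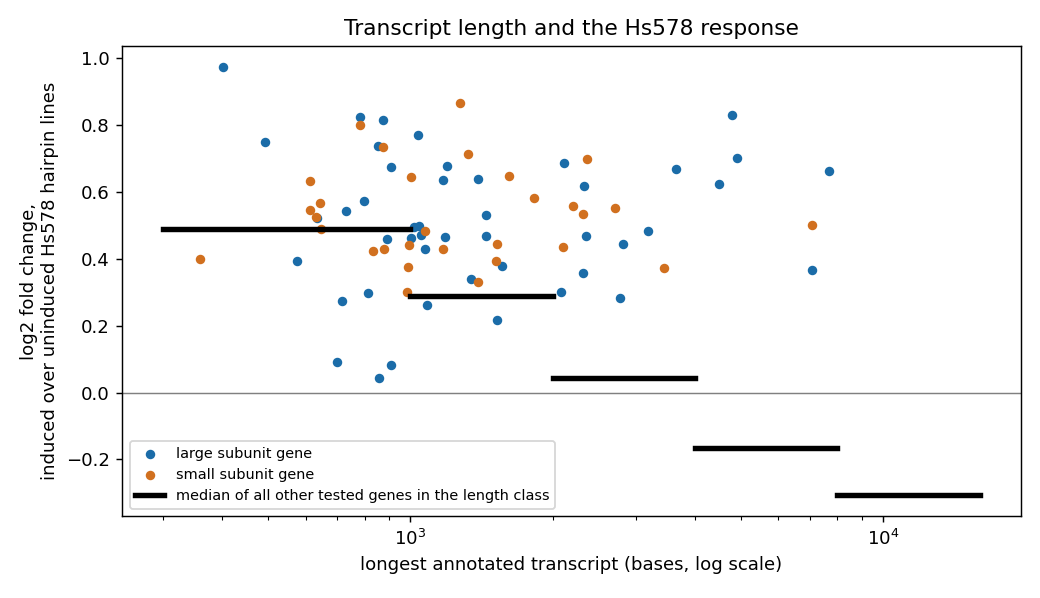
Log2 fold change of each ribosomal protein gene in induced over uninduced Hs578 hairpin lines (y axis) against its longest annotated transcript (x axis, log scale). Black bars are the medians of all other tested genes in 5 length classes, the last of which has no upper limit and is drawn to an arbitrary end. The bars descend from 0.49 to -0.31, while members whose longest annotated transcript exceeds 4000 bases have a median of 0.64. The count to FPKM ratio gives such members as RPL37 and RPL14 far shorter lengths.

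Members of the small subunit with the largest response included RPS26, RPS10 and RPS15. RPS26, which lines the channel where the message leaves the small subunit, had 62.0, 66.5 and 81.9 CPM in induced Hs578 hairpin lines 1, 2 and 3, against 38.1, 39.7 and 37.5 CPM uninduced. These groups stood apart, and the log2 fold change was 0.87 ± 0.10 (SE, adjusted p = 0.000216), the lowest p among the members. RPS10, mutated in some families with Diamond-Blackfan anaemia, had only 7.62, 11.1 and 12.3 CPM induced, against 6.10, 5.79 and 5.93 CPM uninduced. Its log2 fold change was 0.80 ± 0.17 from counts (adjusted p = 0.00339) but 0.47 from FPKM. RPS15, at the head of the small subunit, had 339, 442 and 519 CPM induced, against 233, 289 and 260 CPM uninduced, a log2 fold change of 0.73 ± 0.14 (adjusted p = 0.00211).

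In the large subunit RPL39, RPL28 and RPLP2 led. RPL39, a small protein at the wall of the peptide exit tunnel, had 19.4, 24.8 and 33.3 CPM induced, against 12.8, 12.1 and 14.6 CPM uninduced. Its log2 fold change of 0.97 ± 0.18 (adjusted p = 0.00180) is the highest of the members from counts, and it was 0.58 from FPKM, which were 713, 865 and 986 induced against 504, 595 and 609 uninduced. RPL28 had 557, 773 and 936 CPM induced, against 395, 453 and 426 CPM uninduced (0.83 ± 0.15, adjusted p = 0.00151). In each of these genes every induced library was above every uninduced one, and hairpin line 3 was the highest.

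The acidic stalk, which recruits the GTPases of translation, is built from RPLP0 as base and pairs of RPLP1 and RPLP2. RPLP2 had 794, 1110 and 1401 CPM in induced Hs578 hairpin lines, against 559, 659 and 648 CPM uninduced, a log2 fold change of 0.82 ± 0.16 (adjusted p = 0.00235). RPLP1 had 487, 620 and 708 CPM induced, against 348, 406 and 381 CPM uninduced, a log2 fold change of 0.68 ± 0.12 (adjusted p = 0.00140). For RPLP0 the values were 645, 718 and 803 CPM induced, against 518, 610 and 585 CPM uninduced, and its log2 fold change was 0.34 ± 0.11 (adjusted p = 0.0331). The size of the RPLP0 estimate was below that of its partners, a difference that was not tested. The RPLP0 call was lost in 9 of 21 alternatives (other scaling, filters, tools, units, length corrections, blocks and libraries left out), with the sign turned in 1 more. From FPKM the estimate was 0.12 (limma adjusted p = 0.394).

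Of the proteins that bind MDM2, RPL11 rose by 0.50 ± 0.12 on the log2 scale (adjusted p = 0.00949). RPL5, its partner in carrying 5S ribosomal RNA, had 829, 945 and 1088 CPM induced, against 728, 866 and 791 CPM uninduced, and did not pass the test (0.26 ± 0.11, adjusted p = 0.0994). The groups overlapped, since uninduced hairpin line 2 lay above induced line 1, but each of the 3 derived lines had more with doxycycline than without, as did parental cells, with 963 CPM against 722 CPM. With the derived line as a block RPL5 was called (0.26, adjusted p = 0.0452). MDM2 itself fell, by 0.44 on the log2 scale (adjusted p = 0.00555).

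RPS6, the substrate of the S6 kinases, had 1056, 1205 and 1308 CPM induced, against 884, 1023 and 930 CPM uninduced, a log2 fold change of 0.33 ± 0.10 (adjusted p = 0.0275). Its call was lost in 11 of 21 alternatives, among them FPKM, at 0.21 (limma adjusted p = 0.0823), and the Hs578 libraries fitted alone (adjusted p = 0.0518). Other small-subunit members at the low end were RPS3A, at 0.30, and RPS23, which helps to read the codon, at 0.37. Both passed the test, but the call was lost in 10 of 21 alternatives for RPS3A, with the sign turned in 2 more, and in 8 for RPS23, with the sign turned in 1 more. From FPKM they were at 0.24 and 0.26, with limma adjusted p of 0.0820 and 0.0710. RPL41, the shortest of the proteins, had 90.8, 105 and 113 CPM induced, against 86.5, 102 and 102 CPM uninduced, so the groups overlapped (0.09 ± 0.12, adjusted p = 0.600). In FPKM they did not overlap, at 1054, 1095 and 1174 induced against 878, 1046 and 1012 uninduced, but limma did not call RPL41. RPL17 and RPL36A stood lowest by count, at 0.05 and 0.08, but from FPKM they were called, at 0.40 and 0.63, with limma's adjusted p of 0.0149 and 0.00373.

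Further members known for a particular role lay within the same range of log2 fold changes. RPL38, which in the mouse controls translation of Hox messages, rose by 0.64, RPS19, the gene most often mutated in Diamond-Blackfan anaemia, by 0.70, and RPS27A, made as a fusion with ubiquitin, by 0.48. RPL13A rose by 0.46, RPS3 by 0.44, RPSA, also known as the laminin receptor, by 0.43, and RPL10, which completes the peptidyl transferase centre, by 0.36. The call was lost in 8 of 21 alternatives for RPS3 and in 7 each for RPSA and RPL10, and the sign of RPL10 turned in 1 more. From FPKM, RPS3 was at 0.28 and RPSA at 0.26 (limma adjusted p = 0.0704 and 0.0609). RPL22, which binds Epstein-Barr virus RNA, was at 0.30 and did not pass the test (adjusted p = 0.0803), but it was called from FPKM (0.36, limma adjusted p = 0.0207) and with the derived line as a block (0.30, adjusted p = 0.0146).

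**Figure D4:**
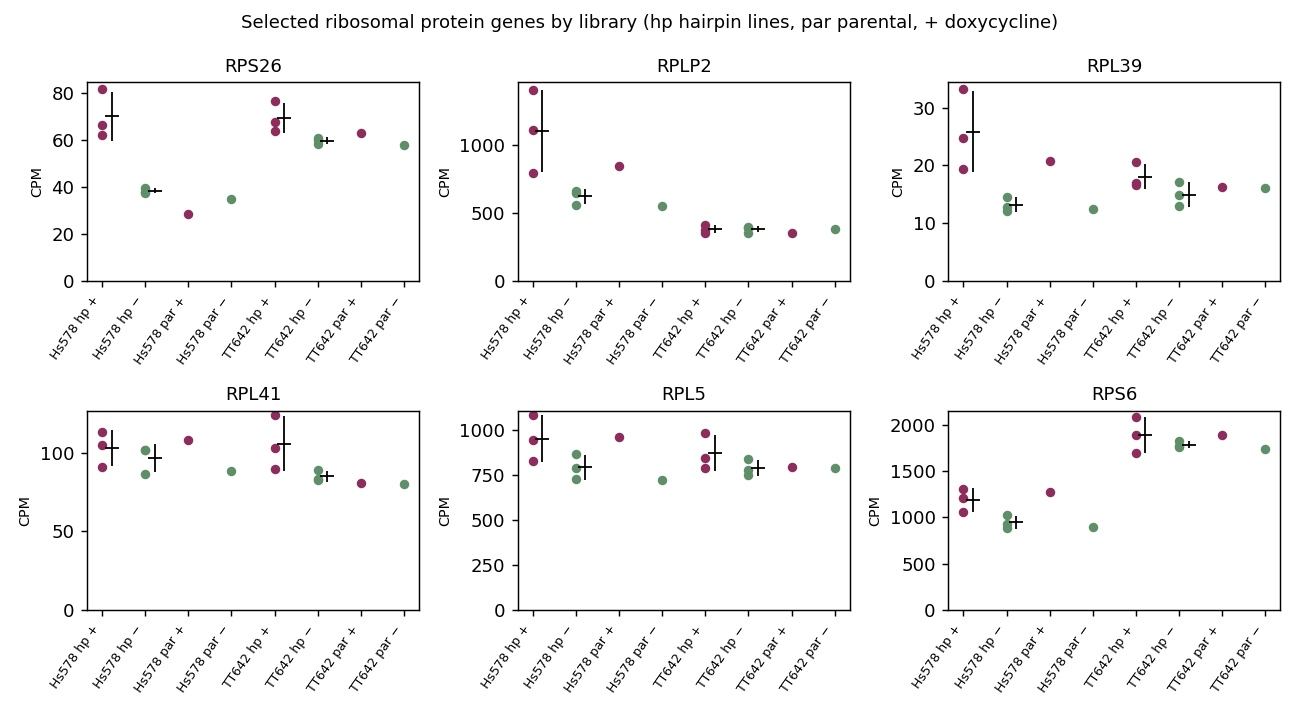
CPM (y axes) of 6 ribosomal protein genes in every library, by line, hairpin status and doxycycline (x axes; purple with, green without), with mean and SD drawn beside each group of 3. RPS26 is higher with doxycycline in the Hs578 hairpin lines but not in parental Hs578 cells, and the RPL41 groups overlap in Hs578.

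Members with a TOP run at an annotated start had a median log2 fold change of 0.53 in the Hs578 hairpin lines (46 genes), and the 16 with an entry but no such run had 0.47. RPS26 and RPS15, whose windows above lack the run, were among the highest.

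Other genes of the pathway moved less uniformly in the Hs578 hairpin lines. FAU rose by 0.64 on the log2 scale. Among 24 tested translation factor and other TOP genes, 6 rose and 1 fell, with a median of 0.19; EEF1D (0.62), EIF3D (0.36) and GNB2L1, the ribosome scaffold also called RACK1 (0.38), were among those that rose, and EIF4B fell. EEF1A1, the factor that brings transfer RNA to the ribosome and the model TOP message, had 2193, 2118 and 2182 CPM induced, against 2205, 2592 and 2298 CPM uninduced, and 3037 CPM in parental cells with doxycycline against 2313 CPM without. Of 45 ribosome biogenesis factors, 7 rose and 4 fell (median 0.08), with HEATR1 at -0.56 (adjusted p = 0.000469). Of 14 RNA polymerase I genes, 2 rose and 3 fell (median 0.08). Among 19 regulators of TOP messages and of mTOR, with MYC, 1 rose and 6 fell, RICTOR (-0.53), LARP4 (-0.52) and MTOR (-0.32) among them. Parental Hs578 cells also had less with doxycycline: 91.1 against 107 CPM for RICTOR, 63.2 against 106 for LARP4, 109 against 143 for MTOR and 73.5 against 111 for HEATR1. The parental medians were 0.28 for the translation factor list, -0.30 for biogenesis factors, -0.18 for RNA polymerase I and -0.24 for the regulators. Net of parental cells, 0 regulators and 0 biogenesis factors were called. The lists were chosen with earlier results of these data known, and their shares are to be read against the 15.2% and 14.1% of all genes.

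In the TT642 hairpin lines no member passed the test in either direction. Over all genes, 0.0143% were called higher and 0.0143% lower, and 1 member, RPL41, had an unadjusted p under 0.05. DESeq2 also called 0 members. The median log2 fold change was 0.11, with 71 of 76 estimates above 0 and a range from -0.22 (RPL36A, at 0.15 from FPKM) to 0.32 (RPL41). The hairpin 2 pair differed from the rest: its median log2 ratio was 0.28 and all 76 members were higher with doxycycline, whereas the medians were -0.02 for hairpin 1, 0.04 for hairpin 3 and 0.04 for parental cells. Without hairpin 2 the median was 0.02. Induced and uninduced libraries did not overlap, with induced higher, for 16 members, against 8.54% of all genes, and with induced lower for 0, against 6.31%.

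RPL41 had 89.6, 124 and 103 CPM in induced TT642 hairpin lines 1, 2 and 3, against 82.6, 89.1 and 82.9 CPM uninduced, with a log2 fold change of 0.32 ± 0.12 and an adjusted p of 0.477. Each induced library lay above each uninduced one. RPLP2 had 355, 414 and 374 CPM induced, against 389, 356 and 399 CPM uninduced, so the groups overlapped and the estimate was -0.0017 ± 0.16. RPS26 had 64.0, 76.5 and 67.9 CPM induced, against 59.98, 61.1 and 58.5 CPM uninduced (0.22 ± 0.10, adjusted p = 0.638). RPS28, which also sits near the message exit, was at 0.25 ± 0.16 (adjusted p = 0.772).

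The difference between the lines in the doxycycline effect was tested directly. It was above 0 for 75 of 76 members, with a median of 0.41 on the log2 scale, and the exception was RPL41 (-0.23). The test was passed by 6 members: RPS10 (0.83 ± 0.22), RPLP2 (0.83 ± 0.22), RPL35 (0.70 ± 0.18), RPS26 (0.65 ± 0.15), RPLP1 (0.63 ± 0.16) and RPS16 (0.62 ± 0.16), with adjusted p between 0.0305 and 0.0469. From FPKM the difference for RPS10 was 0.39 and was not called (limma adjusted p = 0.117), whereas the other 5 were called, at 0.54 to 0.73. That is 6 of 76 members, against 2.76% of all genes called higher, and 0 members were called lower, against 2.48%. RPS16 had 488, 599 and 690 CPM in induced and 358, 432 and 409 CPM in uninduced Hs578 hairpin lines, and 528, 616 and 567 CPM in induced and 601, 582 and 591 CPM in uninduced TT642 hairpin lines. With the derived line as a block, 27 members were called higher, and with the length trend removed 0 were higher and 1 was lower. Leaving out libraries moved the count between 0 and 46: it was 46 without the induced library of Hs578 hairpin line 1 and 0 without any 1 of the 3 hairpin numbers.

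The hairpin lines' response was then taken net of that of the parental cells, which share none of their libraries. In Hs578 the net median was 0.03, with 44 members above 0 and 32 below, and 1 member was called, RPS26, against 0.292% of all genes called higher. RPS26 had 28.6 CPM in parental cells with doxycycline and 35.1 CPM without, the opposite direction to the hairpin lines, and its net log2 difference was 1.16 ± 0.21 (adjusted p = 0.0359). FPKM gave the same picture: 151, 153 and 176 FPKM in induced and 91.1, 98.4 and 95.3 FPKM in uninduced hairpin lines, and 67.7 FPKM in parental cells with doxycycline against 87.0 without. The call rests on 1 parental library per condition, which the fit takes to vary like the hairpin groups, and it was lost when Hs578 libraries were fitted alone (1.18, adjusted p = 0.0709). It was also lost without hairpin 1 or hairpin 3, and without the uninduced library of any of the 3 Hs578 hairpin lines, the adjusted p reaching 0.207. In TT642 no member was called net of parental cells (lowest adjusted p 0.99999, 0 at an unadjusted p under 0.05, and 0 by DESeq2), the net median was 0.06, and 0% of all genes were called.

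Between the lines without doxycycline, Hs578 had less of most ribosomal protein messages than TT642. Of 76 members, 51 were lower and 9 higher in Hs578 hairpin lines, against 39.7% and 41% of all genes, and the median log2 fold change was -0.55 (large subunit -0.60, small subunit -0.52; all genes 0.01). The shares of counts were 2.61% to 3.12% in the 3 uninduced Hs578 hairpin lines and 4.53% to 4.75% in the 3 uninduced TT642 ones. The groups did not overlap, with Hs578 lower, for 57 members, and with Hs578 higher for 12, against 41.4% and 42.7% of all genes. Each of 53 members was called however a hairpin number or a single library was left out. Those fits called 5275 to 5645 of all 14035 genes higher and 5027 to 5417 lower. The share of all genes called in every one of them was not computed, so the 53 are not shown to be unusual.

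RPS12 had the largest deficit. It had 263, 314 and 285 CPM in Hs578 lines 1, 2 and 3, against 807, 767 and 814 CPM in TT642, a log2 fold change of -1.47 ± 0.12 (adjusted p = 1.61e-08). RPL37A had 367, 439 and 413 CPM against 1077, 1069 and 1153 CPM (-1.44 ± 0.14), and RPL31 had 192, 233 and 225 CPM against 565, 586 and 587 CPM (-1.42 ± 0.15). In each of these genes every Hs578 library lay far below the lowest TT642 library. RPS10 was lower by a similar amount in counts (-1.37 ± 0.16) and in FPKM, at 299, 363 and 357 FPKM in Hs578 and 880, 804 and 903 FPKM in TT642.

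The members that were higher in Hs578 were RPL8, RPL24, RPL7, RPLP2, RPS28, RPS15, RPS20, RPL14 and RPL15. From FPKM 4 of these calls were lost: RPS28 was at 0.30, RPS15 at 0.28, RPL14 at 0.09 and RPL15 at -0.03 (limma adjusted p = 0.0879, 0.0607, 0.376 and 0.812), whereas counts gave 0.58, 0.49, 0.28 and 0.26. RPL8, next to the peptidyl transferase centre, had 1481, 1764 and 1620 CPM in Hs578, against 903, 859 and 920 CPM in TT642, a log2 fold change of 0.86 ± 0.12 (adjusted p = 1.06e-05). RPL24, which reaches from the large to the small subunit, was at 0.79 ± 0.10 and RPL7 at 0.76 ± 0.10. Of these 9, RPL7, RPL8 and RPS20 lie on chromosome 8, where 448 tested genes had a median log2 fold change of 1.17 between these lines, the highest of all chromosomes. RPL30, the other member on chromosome 8, was at -0.09 and was not called. On chromosome 3, whose 741 genes had a median of 0.40, RPL14, RPL15 and RPL24 were higher, RPL29, RPL32 and RPL35A were lower and RPSA was not called. On chromosome 5, also at 0.40, 2 of 3 members were lower and 0 higher.

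**Figure D5:**
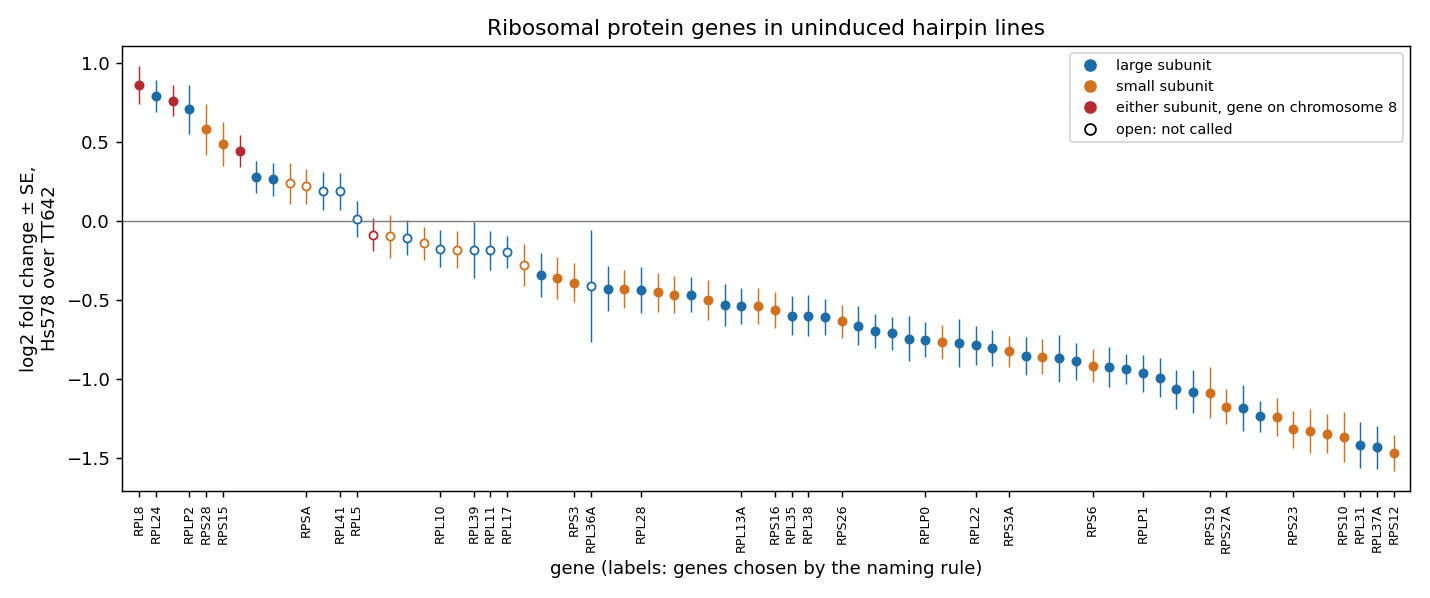
Log2 fold change with SE (y axis) of the 76 tested members in uninduced Hs578 over uninduced TT642 hairpin lines, sorted from highest to lowest (x axis). Filled points passed the test, open points did not, and red points are genes on chromosome 8; labels are given for genes chosen by the naming rule. The points run from 0.86 for RPL8 to -1.47 for RPS12, and 62 of 76 are below 0.

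Genes that build ribosomes went the same way. Of 45 ribosome biogenesis factors, 32 were lower and 8 higher in uninduced Hs578 hairpin lines, with a median of -0.74, and of 14 RNA polymerase I genes 13 were lower and 0 higher, also with a median of -0.74. Of all genes tested, 39.7% were lower and 41% higher. NOLC1, a nucleolar chaperone, was at -2.05 and POLR1B, a core subunit of the polymerase, at -1.83. MYC, which drives these genes, had 174, 159 and 84.1 CPM in Hs578 lines, against 436, 414 and 468 CPM in TT642. Its part in the difference between the lines was not tested. RPL22L1, the paralogue of RPL22, was at -2.18 (adjusted p = 4.70e-08), beside -0.79 for RPL22 itself.

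Across the members, the order of responses was alike between hairpins of Hs578: Spearman's rho over 76 genes was 0.80, 0.78 and 0.83 for the 3 pairings of hairpin lines, whose libraries are distinct. It was 0.31 between the mean of the Hs578 hairpin lines and the parental pair, and 0.20 between the Hs578 and TT642 hairpin lines. Genes of 1 library share its depth and its length trend, so these are descriptions and carry no p.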

How the data were processed

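Per the submitters' processing notes, the genome build was hg19. For the aligner, the counter, its annotation and its strand setting, nothing is given in the sources used here. Per the labels, libraries were made from polyadenylated RNA with a strand-preserving kit. The authors deposited raw read counts per gene symbol (20114 genes) and FPKM values (20111 genes). Counts went into edgeR 4.0.16 (R 4.3.3) with TMM scaling, its default filter on 8 groups (14035 genes left), robust quasi-likelihood F tests, and Benjamini-Hochberg adjustment over all genes tested, with 0.05 as threshold. All 16 libraries entered 1 fit (8 residual degrees of freedom), in which each lone parental library is taken to vary like the rest. FPKM values were tested as log2(FPKM + 1) or log2(FPKM + 0.1) with limma 3.58.1, on which scale changes of low genes are understated, and DESeq2 1.42.0 was a further alternative. Procedures were tested on simulated data. No 2 libraries agreed within sampling noise.

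The members, lists and rules for naming genes (the extremes of each subunit in each comparison, members called in a difference, and members of known role) were chosen with earlier results of these data known. There were 6 comparisons: doxycycline in each line, the difference, each line net of parental cells, and the lines without doxycycline. With 3 against 3 libraries an exact permutation test cannot give a two-sided p below 0.1, so none is used. Hairpin numbers pair libraries, since the titles give the same derived line with and without doxycycline. Deviations of same-numbered libraries from their group means had correlations of 0.13, -0.028 and 0.0012 for the Hs578 hairpins, and of 0.44, 0.42 and 0.42 for those of TT642. Gene starts are from RefSeq (GRCh38.p14) and lengths from GENCODE v29, both used apart from the hg19 files. A list for snoRNA host genes found none of its genes in the files, and 5 markers of blood cells, 8 of epithelium and 8 of mesenchyme were checked. Results on a few genes are not reported here.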

Additional observations from a re-analysis of the deposited data

Results flagged for a closer look

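The doxycycline effect differed between Hs578 and TT642 hairpin lines by the test of the difference for 6 members, on the log2 scale: RPS10 (0.83), RPLP2 (0.83), RPL35 (0.70), RPS26 (0.65), RPLP1 (0.63) and RPS16 (0.62). The difference for RPS10 rests on 95 to 400 counts per library and was 0.39 from FPKM (limma adjusted p = 0.117), where the other 5 were called at 0.54 to 0.73. The effect on RPS26 also differed between Hs578 hairpin lines and parental Hs578 cells, by 1.16.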

How the results depend on the processing

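The Hs578 doxycycline count (69 called) stayed between 58 and 73 under other scaling, filters, tools, the replicate block and the 4 pairs with parental cells. It was 12 with the length trend removed by the count to FPKM ratio (median 0.11) and 28 by GENCODE length (median 0.16), and leaving out libraries gave 7 to 72. Over all genes, 2139 were called higher and 1979 lower in the main fit. These counts were 1314 and 1308 by the ratio, 1370 and 1364 by GENCODE length, and 377 and 470 without hairpin 3. The difference between lines (6 called) came to 16 with DESeq2, 2 with limma at the pseudocount of 0.1, 27 with the replicate block, 47 with a replicate block over 4 pairs, 1 under either length correction, and 0 to 46 with libraries left out; the cause was not tested. The net Hs578 count of 1 became 0 with that line alone, and 0 to 1 with libraries left out. The blocked fit changed no other count by over 1.5 times. The line difference without doxycycline (60 called, 56 to 67 under the alternatives) had medians of -0.70 and -0.70 with limma at pseudocounts 1 and 0.1. With the hairpin number as a replicate block across the lines, chosen after the data were seen, it had 61 called; same-numbered libraries of the lines deviated together with correlations of 0.0031, -0.061 and 0.015, so they share only a number. TT642 counts stayed at 0.

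PRRX1 in Hs578 was at -1.74 with an adjusted p of 0.0578 over 4 pairs, and -2.65 to -1.98 with libraries left out, the call being lost without hairpin 1 (adjusted p = 0.0605). In TT642 it passed the threshold without robust moderation (-2.03), with DESeq2 (-2.04) and with limma (-2.18 and -2.20 at pseudocounts 1 and 0.1), and was at -2.55 to -1.69 with libraries left out, passing without the induced library of hairpin 3.

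Signs turned for these log2 fold changes in Hs578. With the length trend removed by the count to FPKM ratio and then by GENCODE length, RPL17 was at -0.35 and -0.40, RPL36A at -0.34 and -0.37, RPL41 at -0.31 and -0.40, RPS3A at -0.11 and -0.12, and RPL5 at -0.014 and -0.13. By the count to FPKM ratio alone, RPS23 was at -0.035, RPLP0 at -0.068, RPL10 at -0.049 and RPL22 at -0.11. With libraries left out, RPL17 lay between -0.045 and 0.13 and RPL36A between -0.57 and 0.47. In TT642, limma gave 0.15 for RPL36A and 0.080 for RPS10, and libraries left out gave -0.11 to 0.061 for RPLP2, -0.12 to 0.012 for RPS16 and -0.14 to 0.071 for RPS10.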
